A study of Mus musculus with 8 samples.

Results

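The interleukin-6 cytokines, their receptors and the Stat3 pathway were followed in mouse cumulus oocyte complexes. Such a complex is an oocyte wrapped in the specialised granulosa cells that leave the follicle with it at ovulation. The 9 genes were Il6, Lif and Il11 (ligands), Il6st, Il6ra, Lifr and Osmr (receptors), and Stat3 and Socs3 (signal transducer and feedback inhibitor). They were chosen by symbol from 19938 genes with a single gene symbol on a whole-transcript array, each through its brightest probe set. All 9 were measured, none was filtered out, and Socs3 alone had a second probe set. Both genotypes were prepubertal mice. PRKO mice were homozygous for a lacZ insertion that disrupts both isoforms of the progesterone receptor, a germline insertion present in every cell. PR+/- mice carried the insertion on 1 allele, so no group was free of it. All mice were 21 to 23 days old, received 5 IU of equine chorionic gonadotropin and, 44 to 47 h later, 5 IU of human chorionic gonadotropin (hCG), and complexes were punctured from antral follicles 8 h after hCG. Each genotype had 4 arrays, each of complexes pooled from 3 animals, 12 animals per genotype.

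Interleukin-6 family cytokines signal through gp130, the shared receptor chain that Il6st encodes. A ligand first binds its own receptor (Il6ra for IL-6, Lifr for LIF), the complex with gp130 activates Janus kinases, and these phosphorylate STAT3, which enters the nucleus and induces Socs3, an inhibitor that ends the signal. Granulosa and cumulus cells make IL-6 after the ovulatory surge, and IL-6 and LIF can both promote expansion of the mouse cumulus matrix in culture.

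None of the 9 genes passed the test between genotypes, but Il6, Lif, Lifr and Il6st had the largest differences and all 4 were negative, that is lower in PRKO complexes. The lowest unadjusted p belonged to Lif, at 1.30-fold, and the largest difference to Il6, at 1.66-fold. Stat3, Socs3, Il11 and Osmr differed by less than 0.07 on the log2 scale. Among the 80 other pathway genes, 6 passed: the receptor inhibitor Socs2, the Il6 activator Cebpb and the receptor Egfr fell in PRKO, and the inhibitor Cish, the receptor Il4ra and the AP-1 subunit Fosl2 rose.

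Values are log2 signals as deposited, and a difference is PRKO minus PR+/- on that scale, with a moderated standard error (SE) from limma. The threshold is a Benjamini-Hochberg adjusted p under 0.05 over all 21789 probe sets with a single symbol. By it 582 of 19938 genes (2.92%) passed, 286 higher and 296 lower in PRKO; with each array centred on its median, 166 were higher and 303 lower. Array medians lay between 5.35 and 5.46. Pgr, which carries the insertion, was at 5.84, 5.23, 5.54 and 6.17 in PRKO replicates 1 to 4, against 6.09, 7.34, 6.54 and 7.15 in PR+/- replicates 1 to 4. It fell by 1.09 ± 0.26 (limma adjusted p = 0.0452), the groups overlapped, and the call ended without any 1 array other than PR+/- replicate 1 or PRKO replicate 4 (adjusted p 0.0660 to 0.130). PR+/- replicate 4 was the lowest PR+/- array for 8 of the 9 genes, Lifr being the exception, and for 27.0% of all genes. The other PR+/- arrays were lowest for 22.0% to 26.5% of all genes. Results that rest on this array are given with and without it.

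The promoters of 4 genes, the ligands Il6 and Lif and the inhibitors Socs3 and Cish, are shown with letter matches to motifs in capitals. Each runs from 250 bases before to 50 bases after the RefSeq start, on build GRCm38.p6, 5′ to 3′ on the gene's own strand. The start used for Socs3 lies inside the gene's full RefSeq span. In Il6 (chr5:30012864-30013163, plus strand) capitals mark matches to an AP-1 site (TGANTCA), a cyclic AMP response element core (TGACG), a C/EBP site (TTNNGNAA) and an NF-kB site (GGGNNTTTC). In Lif (chr11:4257318-4257617, plus strand) they mark a match to the AP-1 site. In Socs3 (chr11:117969317-117969616, minus strand) and Cish (chr9:107296409-107296708, plus strand) they mark matches to a STAT site (TTCNNNGAA).
Il6: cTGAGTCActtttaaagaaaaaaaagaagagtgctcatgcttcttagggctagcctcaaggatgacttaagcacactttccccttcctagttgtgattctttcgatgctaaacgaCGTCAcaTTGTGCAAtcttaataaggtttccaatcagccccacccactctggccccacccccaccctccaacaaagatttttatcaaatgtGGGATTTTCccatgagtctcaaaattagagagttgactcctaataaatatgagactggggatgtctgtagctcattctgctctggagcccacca
Lif: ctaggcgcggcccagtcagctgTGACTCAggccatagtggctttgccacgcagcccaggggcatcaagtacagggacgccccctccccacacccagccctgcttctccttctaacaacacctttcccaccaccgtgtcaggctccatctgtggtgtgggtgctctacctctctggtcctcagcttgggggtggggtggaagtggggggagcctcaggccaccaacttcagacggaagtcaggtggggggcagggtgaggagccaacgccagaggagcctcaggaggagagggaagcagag
Socs3: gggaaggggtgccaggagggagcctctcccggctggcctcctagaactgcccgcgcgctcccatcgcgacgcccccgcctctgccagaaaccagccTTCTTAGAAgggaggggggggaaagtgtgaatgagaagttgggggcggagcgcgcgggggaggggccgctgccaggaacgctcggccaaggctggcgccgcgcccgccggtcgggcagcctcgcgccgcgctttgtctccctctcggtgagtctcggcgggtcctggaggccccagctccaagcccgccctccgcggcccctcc
Cish: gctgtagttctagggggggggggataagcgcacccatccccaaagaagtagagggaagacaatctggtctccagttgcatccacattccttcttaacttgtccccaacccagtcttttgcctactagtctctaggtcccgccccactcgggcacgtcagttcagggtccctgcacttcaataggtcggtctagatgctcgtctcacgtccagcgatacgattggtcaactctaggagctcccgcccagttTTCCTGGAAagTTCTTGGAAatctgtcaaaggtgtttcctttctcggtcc

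Both strands were searched, and none of the marked matches overlapped another. In Il6 the matches began 249 (AP-1), 135 (response element core), 128 (C/EBP) and 44 (NF-kB) bases before the start. In Lif the AP-1 match began 228 bases before it. Among the 9 genes the AP-1 letters were also in 1 of 2 windows of Il11, 98 bases before the start. They were in that of Osmr too, 3 bases after the start. The response element core was also in the window of Il6ra, and the C/EBP letters in those of Il6ra and Stat3. Socs3 had 1 STAT match, 154 bases before the start, and Cish had 2, beginning at the start and 11 bases after it. Of 32851 RefSeq mouse promoters of this length, 7.81% held the AP-1 letters, 20.8% the response element core, 40.7% the C/EBP letters, 4.36% the NF-kB letters and 8.30% the STAT letters. The palindrome core of the progesterone and glucocorticoid receptor element (ACANNNTGT), in 6.85% of promoters, was not among the letters of any window of the 9 genes. The single receptor hexamer (AGAACA), in 19.0%, was found only in that of Stat3. A match is a string of letters, and binding was not measured.

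Il6 encodes the founding cytokine of the family (RefSeq gene at chr5:30013114-30019975). Its signal was 3.53, 3.43, 2.93 and 3.63 in PRKO replicates 1 to 4, against 4.48, 4.33, 4.34 and 3.31 in PR+/- replicates 1 to 4. All PRKO arrays lay below PR+/- replicates 1 to 3, while PR+/- replicate 4 lay inside the PRKO range. The means were 3.38 ± 0.31 in PRKO and 4.12 ± 0.54 in PR+/- (SD, n = 4 each). The difference was -0.73 ± 0.23 (95% limits -1.24 to -0.23), with a limma adjusted p of 0.130, and an exact permutation test (two-sided, 70 arrangements) gave p = 0.114. Without PR+/- replicate 4 the difference was -1.002 and the limma adjusted p 0.00330. Without any other 1 array Il6 did not pass (limma adjusted p 0.152 to 0.298). All 4 PRKO arrays, and PR+/- replicate 4, were below the lower quartile of their array (3.92 to 4.00), where the background is unknown and a fold may be understated.

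Lif encodes leukaemia inhibitory factor (chr11:4257568-4272514). Its signal was 5.06, 5.02, 4.92 and 4.85 in PRKO replicates 1 to 4, against 5.51, 5.39, 5.40 and 5.08 in PR+/- replicates 1 to 4. The genotypes did not overlap, but PR+/- replicate 4 lay only just above the highest PRKO array. The means were 4.96 ± 0.09 in PRKO and 5.34 ± 0.19 in PR+/- (SD, n = 4 each). The difference was -0.38 ± 0.10 (95% limits -0.60 to -0.16), with a limma adjusted p of 0.0712 and an exact permutation p of 0.0286, the smallest that 4 against 4 arrays allow. Without PR+/- replicate 4 it was -0.47, with a limma adjusted p of 0.0147. Without any other 1 array Lif did not pass (limma adjusted p 0.0787 to 0.177).

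Il11, the third ligand, which signals through its own receptor and gp130 (chr7:4772373-4782907), had the narrowest range over the 8 arrays of the 9 genes. Its signal was 4.65, 4.76, 4.76 and 4.78 in PRKO replicates 1 to 4, against 4.71, 4.71, 4.71 and 4.67 in PR+/- replicates 1 to 4. The groups overlapped, and the difference was 0.04 ± 0.07 (95% limits -0.12 to 0.19, limma adjusted p = 0.850).

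**Figure D1:**
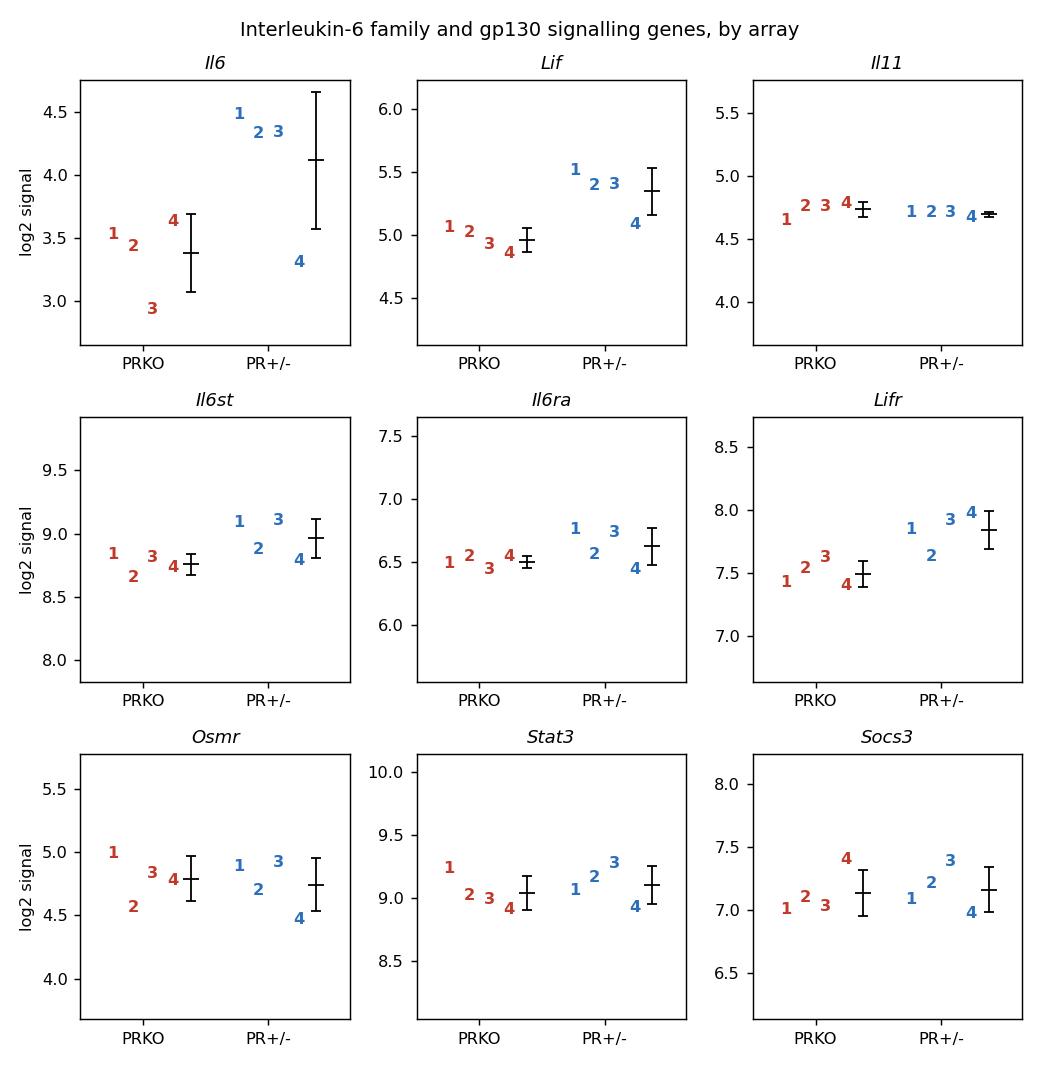
Log2 signal (vertical axis) of the 9 genes in PRKO (red) and PR+/- (blue) arrays. Each digit is 1 array and gives its replicate number, the bar is the mean ± SD (n = 4), and every panel spans the same range of log2 units. Lif and Lifr do not overlap between genotypes, and PR+/- replicate 4 is the lowest blue digit in all panels but Lifr.

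Among the receptors, Lifr, the chain that binds LIF and pairs with gp130 (chr15:7090610-7197489), stood furthest apart. Its signal was 7.42, 7.53, 7.62 and 7.40 in PRKO replicates 1 to 4, against 7.84, 7.63, 7.91 and 7.97 in PR+/- replicates 1 to 4. The genotypes did not overlap, with PR+/- replicate 2 just above the highest PRKO array. The means were 7.49 ± 0.10 in PRKO and 7.84 ± 0.15 in PR+/- (SD, n = 4 each). The difference was -0.34 ± 0.09 (95% limits -0.55 to -0.14), with a limma adjusted p of 0.0800 and an exact permutation p of 0.0286. Without PR+/- replicate 2 the difference was -0.41 and the limma adjusted p 0.0458. Without any other 1 array Lifr did not pass (limma adjusted p 0.101 to 0.199).

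Il6st, the gene of gp130 itself (chr13:112464070-112506860), was at 8.83, 8.65, 8.81 and 8.73 in PRKO replicates 1 to 4, against 9.09, 8.87, 9.10 and 8.79 in PR+/- replicates 1 to 4. PR+/- replicate 4 fell within the PRKO range and the other PR+/- arrays lay above it. The difference was -0.21 ± 0.09 (95% limits -0.41 to -0.01), with a limma adjusted p of 0.300 and an exact permutation p of 0.0857.

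Il6ra, the IL-6 binding chain (chr3:89869324-89913196), was at 6.49, 6.54, 6.44 and 6.54 in PRKO replicates 1 to 4, against 6.76, 6.56, 6.73 and 6.44 in PR+/- replicates 1 to 4. Replicates 1 to 3 of PR+/- lay above every PRKO array, and replicate 4 among them. The difference was -0.12 ± 0.09 (95% limits -0.31 to 0.07, limma adjusted p = 0.560). Osmr, the chain that binds oncostatin M (chr15:6813568-6874968), was at 4.99, 4.56, 4.83 and 4.78 in PRKO replicates 1 to 4, against 4.89, 4.70, 4.92 and 4.47 in PR+/- replicates 1 to 4. The groups overlapped throughout, with a difference of 0.05 ± 0.12 (95% limits -0.21 to 0.31, limma adjusted p = 0.892), and its sign turned without PR+/- replicate 4 (-0.04) or PRKO replicate 1 (-0.02).

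Downstream of the receptors, Stat3, the transcription factor that gp130 activates (chr11:100886806-100939594), was at 9.23, 9.02, 8.99 and 8.91 in PRKO replicates 1 to 4. In PR+/- replicates 1 to 4 it was at 9.06, 9.16, 9.27 and 8.92. The ranges nearly coincided, and the difference was -0.07 ± 0.10 (95% limits -0.28 to 0.15, limma adjusted p = 0.805). STAT3 acts after phosphorylation, which a transcript array does not read.

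Socs3, the inhibitor that STAT3 induces and a transcript often read as a sign of its activity (chr11:117966079-117970336), was at 7.005, 7.10, 7.03 and 7.40 in PRKO replicates 1 to 4. In PR+/- replicates 1 to 4 it was at 7.08, 7.21, 7.38 and 6.97. The ranges coincided, and the difference was -0.03 ± 0.11 (95% limits -0.27 to 0.22, limma adjusted p = 0.938), positive without PR+/- replicate 3 (0.04) or PRKO replicate 1 (0.02) or 3 (0.01). The second Socs3 probe set, with 5.31 ± 0.10 in PRKO and 5.26 ± 0.17 in PR+/- (SD, n = 4 each), had a difference of 0.05 ± 0.10 (limma adjusted p = 0.868).

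**Figure D2:**
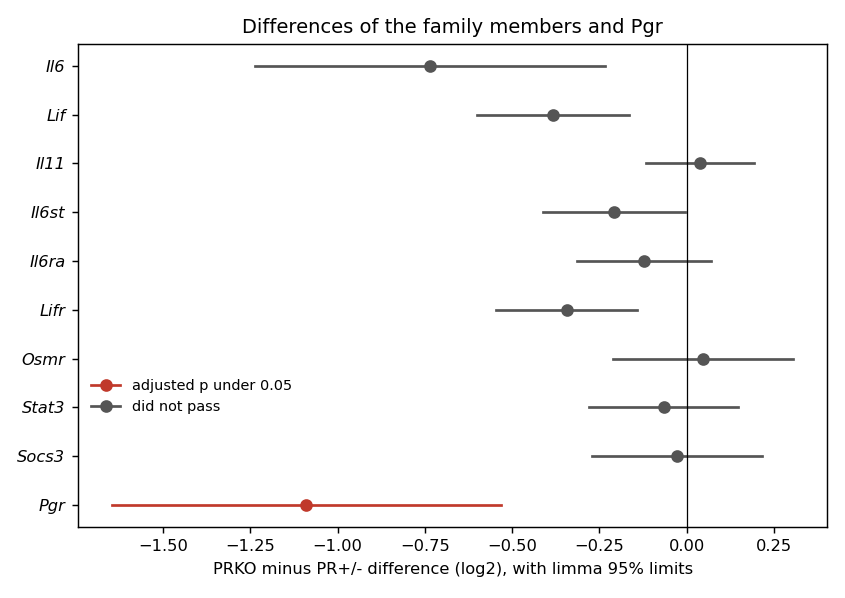
Difference between genotypes (horizontal axis, PRKO minus PR+/- in log2 units) for the 9 genes and Pgr. Points are limma estimates and lines their 95% limits. Pgr alone (red) passed the threshold, and the limits of Il6, Lif, Il6st and Lifr stay below 0.

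Set beside all genes, 0 of the 9 members passed an adjusted p of 0.05 in limma (2.92% of all genes, 1.43% as higher and 1.48% as lower in PRKO), and 2, Lif and Lifr, passed 0.1 (4.67% of all genes). An unadjusted p under 0.05 was reached by 4 members, all lower in PRKO (16% of all genes, and 6.72% in that direction). The genotypes did not overlap for 2 members, both lower in PRKO (10.2% of all genes, 4.12% in that direction and 6.08% in the other). Of the 9 differences 7 were negative, with a median of -0.12, against a median of 0.00 over all genes. Without PR+/- replicate 4, 2 members passed the threshold, Il6 and Lif, both lower in PRKO (2.67% of all genes at that setting, 1.64% in that direction). That array was the lowest PR+/- array for 8 of the 9, so leaving it out makes those differences more negative by construction. Without PR+/- replicate 2, 1 member passed, Lifr, and without any other 1 array 0 passed. The 9 genes were chosen with earlier results of these data known, and whether they differ from other genes was not tested.

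The rest of the pathway was taken from lists of ligands, receptors, kinases, inhibitors, STAT3 response genes and Il6 regulators. Of 80 measured genes 3 rose, 3 fell and 74 did not pass, so that 7.50% passed, against 2.92% of all genes. Their median difference was -0.03. These lists too were chosen with earlier results of these data known, and whether their genes differ from other genes was not tested.

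Of 7 other ligands of the family 0 passed in limma and 0 had an unadjusted p under 0.05. The largest difference was that of Clcf1, a cytokine that acts through the ciliary neurotrophic factor receptor (0.26 ± 0.14, limma adjusted p = 0.403). Osm (-0.12 ± 0.11) and Ebi3 (-0.11 ± 0.09) followed. Of 3 other receptors 0 passed and 0 had an unadjusted p under 0.05: Il31ra was at -0.06, Il27ra at -0.04 and Cntfr at -0.03, the last 2 turning sign without 1 array.

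Among 13 Janus kinase, STAT and adaptor genes 0 passed in limma, and 2 had an unadjusted p under 0.05. Jak1, the kinase that gp130 relies on most, was at 10.06, 9.74, 9.94 and 10.13 in PRKO replicates 1 to 4, against 10.29, 10.35, 10.26 and 10.51 in PR+/- replicates 1 to 4. The genotypes did not overlap. The difference was -0.38 ± 0.10, with a limma adjusted p of 0.0690, and the adjusted p ranged over the alternatives between 0.0442, with the mean of 15 oocyte markers as a covariate, and 0.191, without moderation. Shc1, an adaptor of the Ras branch, was at 0.25 ± 0.09 (limma adjusted p = 0.204) and Stat5a at 0.17 ± 0.08 (0.340). The median of the list was -0.02.

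Of 16 inhibitors and receptor-shedding proteases, Socs2 fell, Cish rose and 14 did not pass. Both encode proteins of the SOCS family that dampen cytokine and growth hormone receptors and are well known targets of STAT5. Socs2 was at 9.63, 9.77, 9.73 and 9.90 in PRKO replicates 1 to 4, against 10.41, 10.34, 10.11 and 10.53 in PR+/- replicates 1 to 4. Every PRKO array lay below every PR+/- array, and the fall of 0.59 ± 0.10 had a limma adjusted p of 0.00872. Cish, whose promoter is shown above with its STAT matches, was at 6.38, 6.19, 6.15 and 6.13 in PRKO replicates 1 to 4, against 5.61, 5.81, 5.66 and 5.37 in PR+/- replicates 1 to 4. Every PRKO array lay above every PR+/- array, and the rise of 0.60 ± 0.10 had a limma adjusted p of 0.00806. These 2 inhibitors thus moved in opposite directions. Socs7 was at -0.37 ± 0.10 (limma adjusted p = 0.0924). With 1 array left out it passed only without PR+/- replicate 1 (limma adjusted p = 0.0495). Ptpn1, a phosphatase of Janus kinases, was at 0.19 ± 0.09 (limma adjusted p = 0.306) and Socs4 at 0.19 ± 0.10 (0.421).

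**Figure D3:**
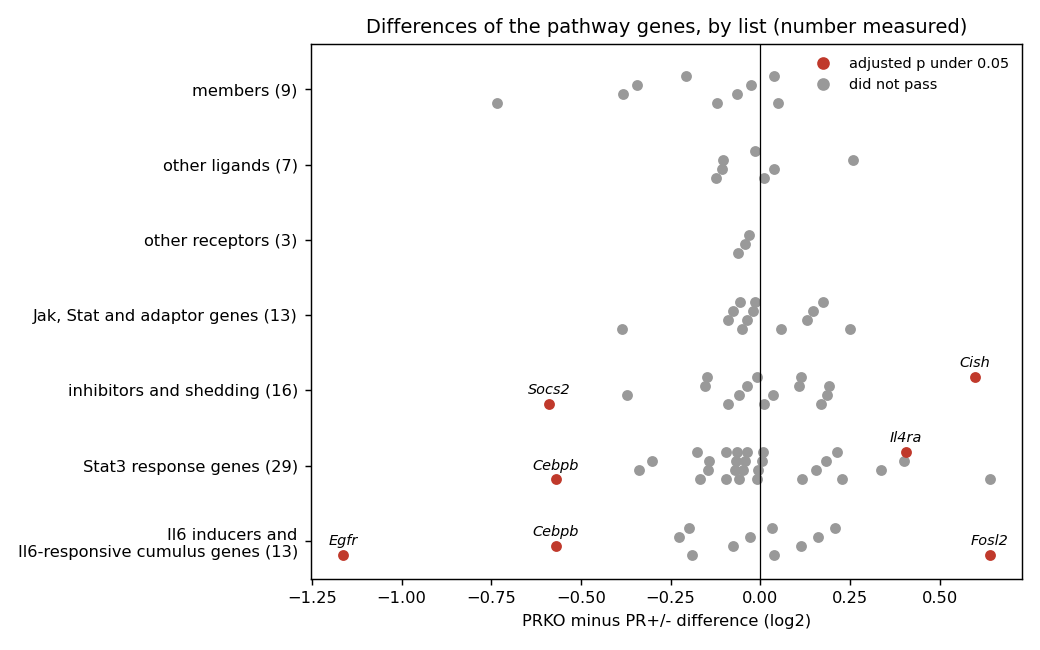
Difference between genotypes (horizontal axis, PRKO minus PR+/- in log2 units) for the 9 members and the genes of each pathway list (rows, with the number measured). Each point is 1 gene, spread vertically only for legibility. The 6 genes past the threshold are red and named, and Cebpb stands in 2 lists.

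Of 29 STAT3 response genes measured, Cebpb fell, Il4ra rose and 27 did not pass, with a median of -0.04. Cebpb, a transcription factor of the acute phase response that binds the Il6 promoter, was at 8.52, 8.33, 8.54 and 8.75 in PRKO replicates 1 to 4. In PR+/- replicates 1 to 4 it was at 9.19, 9.17, 9.10 and 8.94. All PRKO arrays lay below all PR+/- arrays, and the fall of 0.57 ± 0.10 had a limma adjusted p of 0.00966. Il4ra, the interleukin-4 receptor chain, was at 7.46, 7.75, 7.82 and 7.52 in PRKO replicates 1 to 4, against 7.15, 7.31, 7.26 and 7.20 in PR+/- replicates 1 to 4. The genotypes did not overlap, and it rose by 0.41 ± 0.10 (limma adjusted p = 0.0448). That call ended without any 1 array other than PRKO replicate 1 (adjusted p 0.0566 to 0.129) and also after quantile normalization (0.0950) and with the oocyte covariate (0.0524). Timp1, a metalloprotease inhibitor, was at 0.64 ± 0.16 (limma adjusted p = 0.0564), Myc at 0.40 ± 0.12 (0.120) and the survival gene Bcl2l1 at -0.34 ± 0.10 (0.102). With 1 array left out Myc passed only without PR+/- replicate 2 (limma adjusted p = 0.0293). The genotypes did not overlap for Timp1 and Bcl2l1. Timp1 passed among probe sets with a mean signal at or above the median (limma adjusted p = 0.0431) or the lower quartile (0.0497). Bcl2l1 passed with the oocyte covariate (0.0448).

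Of 13 inducers of Il6 and Il6-responsive cumulus genes, Egfr and Cebpb fell, Fosl2 rose and 10 did not pass, with a median of -0.03. Egfr, the receptor of the EGF-like ligands that the surge releases, was at 8.02, 7.94, 8.05 and 7.71 in PRKO replicates 1 to 4. In PR+/- replicates 1 to 4 it was at 9.41, 8.94, 9.34 and 8.68. The genotypes were well apart, and the fall of 1.16 ± 0.15 had a limma adjusted p of 0.00144. Fosl2, a subunit of the AP-1 factor, was at 10.03, 10.09, 10.10 and 9.58 in PRKO replicates 1 to 4, against 9.38, 9.22, 9.48 and 9.17 in PR+/- replicates 1 to 4. It rose by 0.64 ± 0.12 (limma adjusted p = 0.0164) with no overlap, a call that ended without PR+/- replicate 2 (0.0530) or PRKO replicate 2 (0.0593) or 3 (0.0632). The NF-kB inhibitor Nfkbia (-0.23 ± 0.11) and the prostaglandin E2 receptors Ptger4 (0.21 ± 0.12) and Ptger2 (-0.20 ± 0.12) did not pass. Without limma's moderation none of the 6 pathway genes passed (adjusted p 0.0812 to 0.152), and with every probe set of the array tested Il4ra (0.107) and Fosl2 (0.0733) did not.

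**Figure D4:**
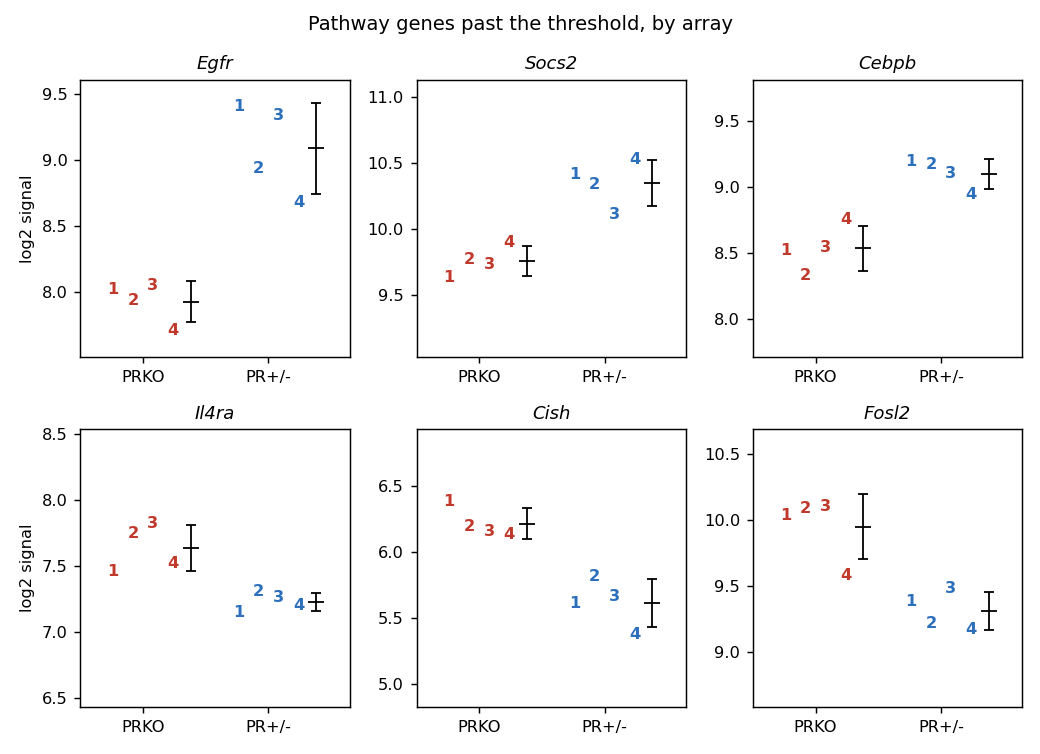
Log2 signal (vertical axis) of the 6 pathway genes past the threshold in PRKO (red) and PR+/- (blue) arrays, with digits for replicate numbers and bars for mean ± SD (n = 4). In all 6 panels the genotypes do not overlap, and Egfr, Socs2 and Cebpb lie lower in PRKO.

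The genes whose values over the 8 arrays followed those of Il6 most closely were sought among 9969 genes at or above the median signal. They were Zpr1 (Pearson's r = 0.962), Fermt2 (0.955), Ap1b1 (0.950), Tmem150a (0.950) and Card19 (0.949). These values describe arrays of both genotypes with 1 low PR+/- array, and genes ranked this way have no test.

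Markers of cells that could also supply these transcripts were set beside them. In a pool, fewer cells of a type and less RNA per cell cannot be told apart. Of 15 macrophage and leukocyte genes 0 passed in limma and 0 had an unadjusted p under 0.05; their mean per array was 4.40 to 4.46 in PRKO and 4.36 to 4.42 in PR+/-. Cd68 (0.21 ± 0.12) and Cx3cr1 (0.07 ± 0.13) had the highest signal, and Adgre1 and Itgam were below the lower quartile on all arrays. Of 10 endothelial genes Kdr, the vascular endothelial growth factor receptor, rose (0.80 ± 0.15, limma adjusted p = 0.0126, and 0.0508 and 0.0512 without PR+/- or PRKO replicate 3), and Cdh5 was at -0.29 ± 0.14. The mean of that list, Kdr included, was 5.06 to 5.18 in PRKO and 4.98 to 5.03 in PR+/-. Of its 10 differences 6 were positive and 4 negative, with a median of 0.06, and only Kdr did not overlap between genotypes.

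Of 12 theca and stroma genes, which include Acta2 (0.47 ± 0.20) and Col1a1 (0.11 ± 0.11), 0 passed in limma and 4 had an unadjusted p under 0.05. Of the 12 differences 10 were positive, with a median of 0.21. Tagln, without overlap between genotypes (0.45 ± 0.12, limma adjusted p = 0.0834), is named because of its values. The list's mean was 5.48 to 6.04 in PRKO and 5.39 to 5.72 in PR+/-. With that mean as a covariate Il6 was at -0.79 (limma adjusted p = 0.211), Lif at -0.37 (0.176) and Lifr at -0.34 (0.183). Of 15 oocyte genes, such as Uchl1 (0.14 ± 0.09) and Padi6 (-0.11 ± 0.24), 0 passed in limma and 1 had an unadjusted p under 0.05. Their mean was 6.09 to 6.59 in PRKO and 6.06 to 6.74 in PR+/-, highest in PR+/- replicate 4. With the oocyte mean as a covariate Il6 was at -0.79 (limma adjusted p = 0.0785), Lif passed at -0.42 (0.0216) and Lifr was at -0.35 (0.0820). Of 11 cumulus and granulosa genes the follicle-stimulating hormone receptor Fshr fell by 1.06 ± 0.15 (limma adjusted p = 0.00221). The other 10 did not pass, among them Tnfaip6 (0.16 ± 0.21) and Inhba (0.12 ± 0.28), and the list's mean was 8.58 to 8.98 in PRKO and 8.59 to 9.06 in PR+/-. Of the 11 differences 6 were negative and 5 positive, with a median of -0.09. In limma 4 of the 11 had an unadjusted p under 0.05 (16% of all genes). The genotypes did not overlap for 2, both lower in PRKO (4.12% of all genes in that direction). The one erythrocyte gene measured, Alas2, was at 0.10 ± 0.08. Beyond the oocyte and theca covariates, the part of other cells in the members' values was not tested.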

How the data were processed

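RNA of 8 pools of cumulus oocyte complexes was labelled with biotin and hybridised to Affymetrix whole-transcript arrays, per the labels' protocols. The authors deposited a log2 signal for each probe set on each array. Partek is named, per the submitters' processing notes; for background, scaling and probe summaries, methods are not given in the sources used. The base was read from the values, which reach 14.08, since on a natural or base 10 scale the highest would exceed the 65535 of a 16-bit scanner.

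The table held 35556 probe sets with no missing values; the 1621 with several symbols and the 12146 with none stayed out of the main test. Of the 21789 others, 21698 matched a RefSeq gene of GRCm38.p6 by Entrez identifier. Differences came from limma 3.58.1 (lmFit, then eBayes with a prior of 6.04 degrees of freedom; R 4.3.3), as two-sided tests with no filter on signal, no block and Benjamini-Hochberg adjustment over all 21789. Tables and plots used pandas 2.3.3, matplotlib 3.10.9 and numpy 2.4.6 under Python 3.11.15. On simulated data of 21789 probe sets the fit called 73.1% of 1.5-fold changes and 100% of 2-fold changes, with 10 unchanged among 192 calls. The simulated noise was normal and independent for each value, with no effect shared across an array, so these rates may not hold for the real arrays. The number of arrays limits the precision. Replicates are pools of different animals, so p-values measure the spread between pools.

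The members and lists were chosen with earlier results of these data known. Named were the 9 members, Pgr, every pathway gene past the threshold with up to 3 others of largest difference per list, the 2 highest and any called marker per cell type, and the 5 genes most like Il6. Of 89 pathway genes listed 80 were measured. Alternatives were a replicate block, quantile normalization, centring, filters on signal, trend with robust moderation, array weights, no moderation, each array left out, every probe set tested, averaging the probe sets of a gene, a threshold of 0.1, exact permutation, and oocyte or theca and stroma marker means as covariates.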

Additional observations from a re-analysis of the deposited data

Results flagged for a closer look

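In 9 of 102 groups of 4 arrays examined, 1 array stood apart from the other 3 by more than Dixon's 95% critical value; chance alone gives about 1 in 20. PR+/- replicate 4 was the low array in 6 of them. For Il6 it was at 3.31 against 4.33 to 4.48 in the other PR+/- arrays, for Il11 at 4.67 against 4.71, for Clcf1 at 6.19 against 6.44 to 6.48, for Timp1 at 10.03 against 10.59 to 10.70, for Cx3cr1 at 5.00 against 5.49 to 5.58 and for Card19 at 7.74 against 8.25 to 8.35. PRKO replicate 4 was low for Socs7, at 6.93 against 7.20 to 7.23, and for Fosl2, at 9.58 against 10.03 to 10.10. PRKO replicate 1 was low for Il11, at 4.65 against 4.76 to 4.78. The spread of Il11 is so narrow that both of its gaps are under 0.12 log2 units. Card19 was picked for following Il6 over these arrays, so its gap is not separate from that of Il6. The groups share arrays and many genes were named for their values, so the chance rate is only a guide.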

How the results depend on the processing

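Of 193 checks of the 9 members' differences, 177 kept their direction and their side of the check's threshold, 9 moved past it and 7 changed sign. The checks at an adjusted p of 0.1 and by exact permutation reused the main difference. The first relaxed the threshold, and the other set an unadjusted p against 0.05. The block, the signal filters, trend with robust moderation, no moderation and testing every probe set also left each difference unchanged. Averaging the probe sets did so for all members but Socs3. In all of these checks only the p-value or the threshold could move, so the direction was fixed in advance. Lif (-0.38) passed with the replicate number as a block (adjusted p = 0.0365), at -0.42 with oocyte markers as a covariate (0.0216), at an adjusted p of 0.1, and by the exact permutation test (unadjusted p = 0.0286). Lifr (-0.34) passed by the last 2 settings (same exact permutation p). Osmr was -0.046 with the theca and stroma mean as a covariate, and Socs3 0.010 as the mean of its probe sets. With 1 array left out, Il6 ranged from -1.002 to -0.58, Lif from -0.47 to -0.33, Lifr from -0.41 to -0.30, Osmr from -0.045 to 0.12 and Socs3 from -0.12 to 0.044. So did Pgr from -1.32 to -0.90; at -1.09 it did not pass with trend and robust moderation (adjusted p = 0.0753), without moderation (0.247), with all probe sets (0.143) or by exact permutation (p = 0.0571), nor at -1.24 with theca and stroma markers (0.0632). Il6 has no value among probe sets above a signal minimum, nor do Lif, Il11 and Osmr above the median, being left out by those filters.

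Members lower in PRKO past the threshold numbered 1 with the block or the oocyte covariate, 2 at an adjusted p of 0.1, and 0 to 2 with 1 array left out. Pathway genes lower in PRKO numbered 0 without moderation and 5 with the oocyte covariate or at 0.1. Higher ones numbered 0 without moderation, 1 with all probe sets, 4 with either signal filter or at 0.1, and 1 to 3 with 1 array left out. Over all genes the lower calls numbered 55 without moderation, 143 with all probe sets and 183 to 327 with 1 array left out. The higher calls numbered 166 after centring, 51 without moderation, 63 with all probe sets, 138 with theca and stroma markers, 502 at 0.1 and 115 to 219 with 1 array left out. Signs also turned for genes with small differences: Cntfr (0.028), Col1a1 (-0.049) and Padi6 (0.022) under a marker covariate. With 1 array left out they turned for Il27ra (-0.089 to 0.028), Cntfr (-0.12 to 0.028), Cx3cr1 (-0.069 to 0.13), Padi6 (-0.31 to 0.088), Tnfaip6 (-0.028 to 0.30) and Inhba (-0.11 to 0.40). The cause of these changes was not tested.

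In the labels, same-numbered arrays of the genotypes are tied only by that number. Their deviations correlated at 0.08 to 0.15, and 4 of 8 arrays correlated best with their own number. Whether they share a batch was not tested. The block gave 333 lower and 338 higher calls. Testing all probe sets adjusts over more tests by construction, and leaving out an array leaves fewer. Low signals such as that of Il6 limit what a fold can show.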
